A study of Mus musculus with 32 samples.

Results

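Nuclear genes for the mitochondrial respiratory complexes I to IV were followed in RNA of the mouse cerebral cortex. They were taken by symbol alone: every gene of the count table whose symbol starts with Nduf, Uqcr, Cox4, Cox5, Cox6, Cox7 or Cox8, together with Sdha, Sdhb, Sdhc and Sdhd. Symbols containing -ps were left out. The rule found 80 of the 55401 genes in the table; it uses symbols and no expression value. The 8 symbols left out include Ndufb1-ps, the only entry with the name of the complex I subunit Ndufb1; it held 112 to 292 counts per library and is not described further.

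The 32 libraries were taken to come from as many mice, all 6 weeks old. The controls (+/+, 12 animals, 6 per sex) are euploid; Ts65Dn;Df(17)2 and Dp(16)1/Df(16)8 have 10 animals each, 5 per sex by label. As background, Ts65Dn has a small separate chromosome made of distal chromosome 16 and the centromeric end of chromosome 17, and Dp(16)1 carries the chromosome 16 region as a tandem duplication. The deficiencies Df(17)2 and Df(16)8 return parts that the lines do not share to the usual dose, so that the triplicated genes are close to identical and only their chromosomal form differs. The rearrangements are inherited and present in all cells. The labels name no further allele or treatment. The labels give each library its own number, which they do not explain and which is read here as an animal number. On this reading p-values measure the spread between animals.

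Complex I takes electrons from NADH, complex II from succinate, and both hand them to ubiquinone. Complex III passes them on to cytochrome c, and complex IV, cytochrome c oxidase, gives them to oxygen. Complexes I, III and IV pump protons across the inner mitochondrial membrane, and neurons draw most of their ATP from the gradient that results. Complex II is encoded in the nucleus only, whereas the others combine nuclear subunits with subunits encoded by mitochondrial DNA. The nuclear genes are scattered over the genome and are commonly described as targets of the transcription factors NRF-1 and GABP (NRF-2). The DNA-binding subunit of GABP is the product of Gabpa, a gene in the triplicated chromosome 16 segment, and its RNA is given beside that of the members. The series asks which effects of the trisomy follow the dose of its genes and which follow the separate chromosome, so each aneuploid genotype is compared with +/+ and with the other.

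By role, 36 of the members are subunits of complex I: 8 of the module that oxidises NADH, 8 of the module that reduces quinone and 20 of the membrane arm. A further 8 are complex I assembly factors, 4 make up complex II, 8 belong to complex III and 12 are general subunits of complex IV, with Ndufa4 and the supercomplex factor Cox7a2l counted there. The next 8 are isoforms of complex IV subunits known from heart, muscle, testis, lung or vascular cells. The last 4, Ndufs6b, Cox6c2, Ndufb4c and Ndufa11b, are annotated as processed pseudogenes. Only 2 members lie on chromosome 16 (GRCm38): the pseudogene Ndufa11b at 22053510-22053933 and the complex I subunit Ndufb4 at 37647170-37654453. Both are outside the segment that the aneuploid genotypes carry in an additional copy, so no member gains a copy of its own. Ndufv3, whose human orthologue is on chromosome 21, lies on mouse chromosome 17 at 31520115-31531331, away from the centromeric end.

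Libraries held 5795479 to 11189548 counts, and genes encoded by mitochondrial DNA took 2.32% to 3.61% of them. Transcripts of Xist and of the Y chromosome matched the sex label in 31 of 32 libraries, and the other one, Dp(16)1/Df(16)8 replicate 2, was kept with its label. Markers of excitatory cortical neurons were abundant in every library, with Slc17a7 at 354 CPM or more. Markers of striatal neurons were also present in every library and differed strongly between animals: Drd2 ran from 1.98 to 103 CPM within +/+ alone. The mean log2 CPM of 18 such markers, called the striatal score here, was 4.54 ± 1.52 in +/+ (SD, n = 12), 5.86 ± 0.61 in Ts65Dn;Df(17)2 (n = 10) and 5.25 ± 1.42 in Dp(16)1/Df(16)8 (n = 10). In bulk tissue, fewer cells of a type and less RNA per cell cannot be told apart.

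The letters that GABP binds occur in the promoters of some members. Promoter sequences, 250 bases before to 50 after the start of a gene, were taken from RefSeq (GRCm38.p6) and matched 61 of the 80 members, 57 of them among the tested ones. The letters CCGGAAG, the core that GABP binds, were searched on both strands. They stood in 13 of the 61 members, or 20.6% of the 63 member windows, and in 8.86% of the 32851 windows of all genes. The perfect NRF-1 palindrome, GCGCA followed at once by its reverse complement TGCGC, stood in 5 members (7.94% of member windows, 0.971% of all windows), and the motifs overlapped in no member window. Of the members with the GABP letters, 6 are in complex I or its assembly, 2 in complex II, 2 in complex III and 3 in complex IV. For either motif, repeated windows of a gene were dropped for members but kept among the windows of all genes. A match is a description of the letters and not a measured site.

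The following stretches run from 100 bases before the start to 10 after it, 5′ to 3′ on the strand of the gene, with the GABP letters or their reverse complement in capitals. They are shown because Cox8a was the member that passed the test, because Cox6a1 and Uqcrh carry the letters next to the start as Cox8a does, and because Uqcr11 and Sdhd carry them farther upstream. All 5 genes lie on the minus strand.
Cox8a, chr19:7217607-7217716: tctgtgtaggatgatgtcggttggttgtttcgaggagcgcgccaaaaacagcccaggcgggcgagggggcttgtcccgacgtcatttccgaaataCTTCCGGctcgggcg
Cox6a1, chr5:115348949-115349058: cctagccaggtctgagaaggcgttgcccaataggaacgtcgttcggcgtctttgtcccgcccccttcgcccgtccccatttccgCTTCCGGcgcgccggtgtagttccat
Uqcrh, chr4:116075061-116075170: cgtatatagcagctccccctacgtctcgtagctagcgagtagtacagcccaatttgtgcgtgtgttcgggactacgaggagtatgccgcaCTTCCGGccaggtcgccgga
Uqcr11, chr10:80406812-80406921: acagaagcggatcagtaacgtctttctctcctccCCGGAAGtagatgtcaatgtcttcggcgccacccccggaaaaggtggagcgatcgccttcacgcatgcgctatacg
Sdhd, chr9:50603840-50603949: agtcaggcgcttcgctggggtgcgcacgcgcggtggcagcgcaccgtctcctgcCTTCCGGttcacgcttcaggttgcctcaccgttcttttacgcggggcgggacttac

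Counted from the start of the gene, the letters begin at position -5 in Cox8a, -10 in Uqcrh, -16 in Cox6a1, -46 in Sdhd and -66 in Uqcr11. Cox8a has a further copy at position 33. Most of the members not printed also carry the letters near the start, such as Ndufaf8 at -8 and Sdhb at 7.

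Median levels differed between complexes, while the ranges of complex I, II and III subunits and of general complex IV subunits overlapped. The members together held 0.352% ± 0.014 of the counts in +/+ (SD, n = 12), 0.355% ± 0.011 in Ts65Dn;Df(17)2 (n = 10) and 0.357% ± 0.021 in Dp(16)1/Df(16)8 (n = 10), and the ranges of the genotypes overlapped. To compare genes, levels were divided by transcript length and are given as CPM per kb, the mean of all 32 libraries. On this scale the general subunits of complex IV stood highest, with a median of 122 CPM per kb, followed by complex III with 70.5. The membrane arm of complex I (46.0), complex II (42.3) and the quinone module (42.1) were close together, and the NADH-oxidising module had a median of 32.1. The complex I assembly factors, which help build the enzyme and leave it, had a median of 8.61 CPM per kb.

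Single members spread widely within their complex. Cox4i1, a large nuclear subunit that regulates complex IV, had the highest level per length of all members at 298.6 CPM per kb, and Cox6c (234) and Cox8a (233.5) came next among the general subunits. The lowest of them was Cox7a2l at 46.8 CPM per kb. In complex III, Uqcrh, the hinge protein near cytochrome c1, stood at 113 and Uqcr11 at 99.0, while Uqcrfs1, the Rieske iron-sulfur protein, stood lowest at 43.6 CPM per kb. In complex II, the flavoprotein Sdha stood at 96.1 CPM per kb and the membrane anchor Sdhc at 15.7. In complex I high levels were those of Ndufb8 (94.1) and Ndufb9 (84.7) of the membrane arm and, in the module that oxidises NADH, Ndufv1 (49.1), the subunit that binds NADH and FMN. Ndufb4 had the lowest level of the membrane arm at 11.9 CPM per kb.

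**Figure D1:**
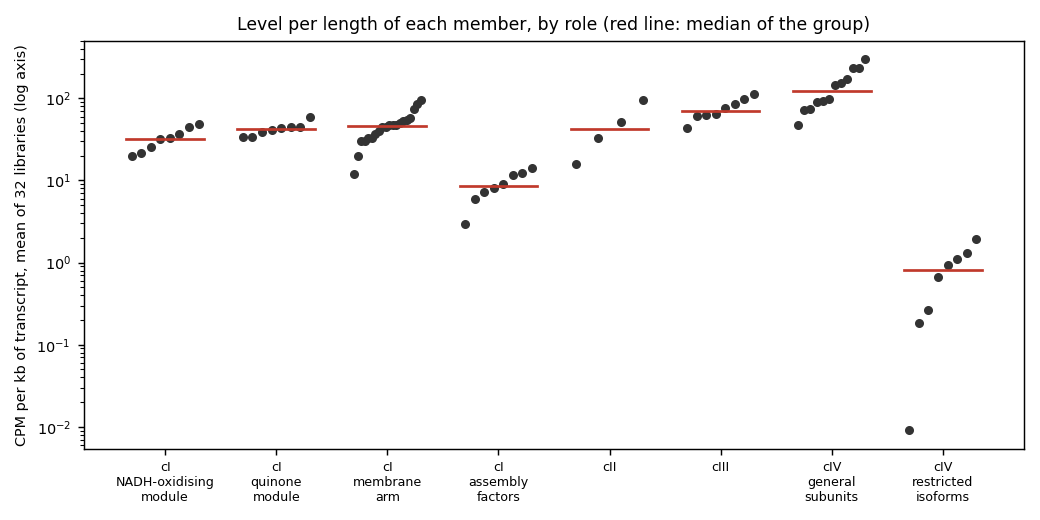
Each point is 1 member, placed by its level in CPM per kb of transcript (log axis, mean of 32 libraries) within its role group, where cI to cIV stand for complexes I to IV; red lines are group medians. General complex IV subunits have the highest median (122), assembly factors stand at 8.61 and the restricted isoforms of complex IV at 0.805.

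The restricted isoforms of complex IV were nearly silent in this tissue. Set against the general isoform per length, Cox4i2 stood at 0.312% of Cox4i1, Cox6b2 at 0.714% of Cox6b1, Cox8b at 0.117% of Cox8a, Cox7b2 at 0.257% of Cox7b and Ndufa4l2 at 0.465% of Ndufa4. The muscle isoforms Cox7a1 (1.45% of Cox7a2) and Cox6a2 (1.11% of Cox6a1) reached the highest shares. Cox8c had 1 count in 1 library, and the pseudogenes Ndufs6b (1 count), Cox6c2 (9), Ndufa11b (27) and Ndufb4c (0) had few or none over all libraries; a count of 0 allows up to 3. Of these 12 genes only Cox6a2 passed the filter on low counts, which left 69 members to test among 16042 genes. The 11 others are Cox4i2, Cox6b2, Cox7a1, Cox7b2, Cox8b, Cox8c, Ndufa4l2 and the 4 pseudogenes. Counts behind the untested isoforms were 0 to 12 per library (Cox7a1 1 to 12, Cox4i2 0 to 11), too few to compare genotypes. Of 12 markers of skeletal and heart muscle, 3 passed the filter, and Ckm had 6 counts over all libraries.

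In Ts65Dn;Df(17)2 against +/+, 1 of the 69 tested members passed and 68 did not. Cox8a, the general isoform of subunit 8, a small membrane subunit of complex IV, fell by 0.15 on the log2 scale (SE 0.040), or to 0.903 of the +/+ level (95% interval 0.854 to 0.956). Over all genes 3.97% passed in this comparison, 2.22% downward, so 1 of 69 is no more than the background. With unadjusted p under 0.05 there were 8 members, against 21.8% of all genes. Signs were split almost evenly, 35 positive and 34 negative, where 48.6% of all genes were negative. Tests are quasi-likelihood F tests of edgeR, with p adjusted over all 16042 genes (Benjamini-Hochberg), and a gene passes at an adjusted p under 0.05.

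Cox8a had the following levels. In +/+ the lowest, median and highest values were 108.7, 138.1 and 148 CPM, in Ts65Dn;Df(17)2 111, 124.9 and 130.4 CPM, and in Dp(16)1/Df(16)8 118.5, 125 and 140.5 CPM. All 10 Ts65Dn;Df(17)2 animals were below the +/+ mean of 135.7 CPM, but the ranges overlapped, because a single +/+ animal, replicate 11, had the lowest level of the whole series. Adjusted p was 0.0375 by edgeR's quasi-likelihood test. Without 1 library at a time the adjusted p ran from 0.0028 to 0.0792, and the call ended in 9 of 32 such fits: without +/+ replicates 1, 5, 9 or 10, or Ts65Dn;Df(17)2 replicates 1, 2, 4, 6 or 7. It also ended without the low-count filter (0.0864), in females alone (0.155), in males alone (0.549), with the striatal score as a term (0.0941), with terms for blocks of neighbouring animal numbers (0.514) and without animals numbered under 30000 (0.0937). The animals numbered under 30000 are Ts65Dn;Df(17)2 replicates 4 and 5, which form a block without any other genotype. The log2 change of Cox8a stayed between -0.20 and -0.10 in all fits run.

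Dp(16)1/Df(16)8 shares its controls with this comparison. There Cox8a had a log2 fold change of -0.11 (SE 0.040) with an adjusted p of 0.252 by edgeR, and 9 of 10 animals were below the +/+ mean. Without +/+ replicate 11 the adjusted p there was 0.0452. Between the aneuploid genotypes the log2 difference of Cox8a was -0.04, with an interval of 0.919 to 1.035 in fold, so a difference between them was not shown.

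In Dp(16)1/Df(16)8 against +/+, 0 of the 69 members passed, where 0.573% of all genes did. DESeq2 and limma voom also called 0, and 8 members had an unadjusted p under 0.05 (12.8% of all genes). The smallest adjusted p of a member, 0.152, belonged to Ndufa2. The log2 fold change was positive for 46 members and negative for 23, with a median of 0.02, beside 0.0014 over all genes, 49.5% of which were negative. Without Dp(16)1/Df(16)8 replicate 6, 35 of the 69 were negative and their median was -0.00064.

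Between Ts65Dn;Df(17)2 and Dp(16)1/Df(16)8, the comparison of a freestanding chromosome with a duplication, 0 of the 69 members passed by edgeR, where 0.0499% of all genes did. Only Ndufaf1, an early complex I assembly factor, had an unadjusted p under 0.05, as 4.1% of all genes did. Its log2 difference was -0.15 (SE 0.073), with all 10 Ts65Dn;Df(17)2 animals below the Dp(16)1/Df(16)8 mean and an adjusted p of 0.9998. Of the 69 members 44 had a negative value in this comparison, where 49.9% of all genes did. The general complex IV subunits had 12 of 12 negative values, from -0.10 for Cox5b to -0.0023 for Cox7a2l, and none passed.

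The data bounded the size of a change for most members. In Ts65Dn;Df(17)2 the 95% interval of the fold lay within 1.2-fold of +/+ in both directions for 61 of 69 members and within 1.5-fold for 67. It lay within 1.2-fold for 62 members in Dp(16)1/Df(16)8, and between the aneuploid genotypes for 63. Of all 16042 genes, 6753 had an interval within 1.2-fold in Ts65Dn;Df(17)2. A change of 1.5-fold, the size that an additional gene copy gives, was outside the interval of every tested member but Ndufaf6 and Cox6a2 in Ts65Dn;Df(17)2.

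**Figure D2:**
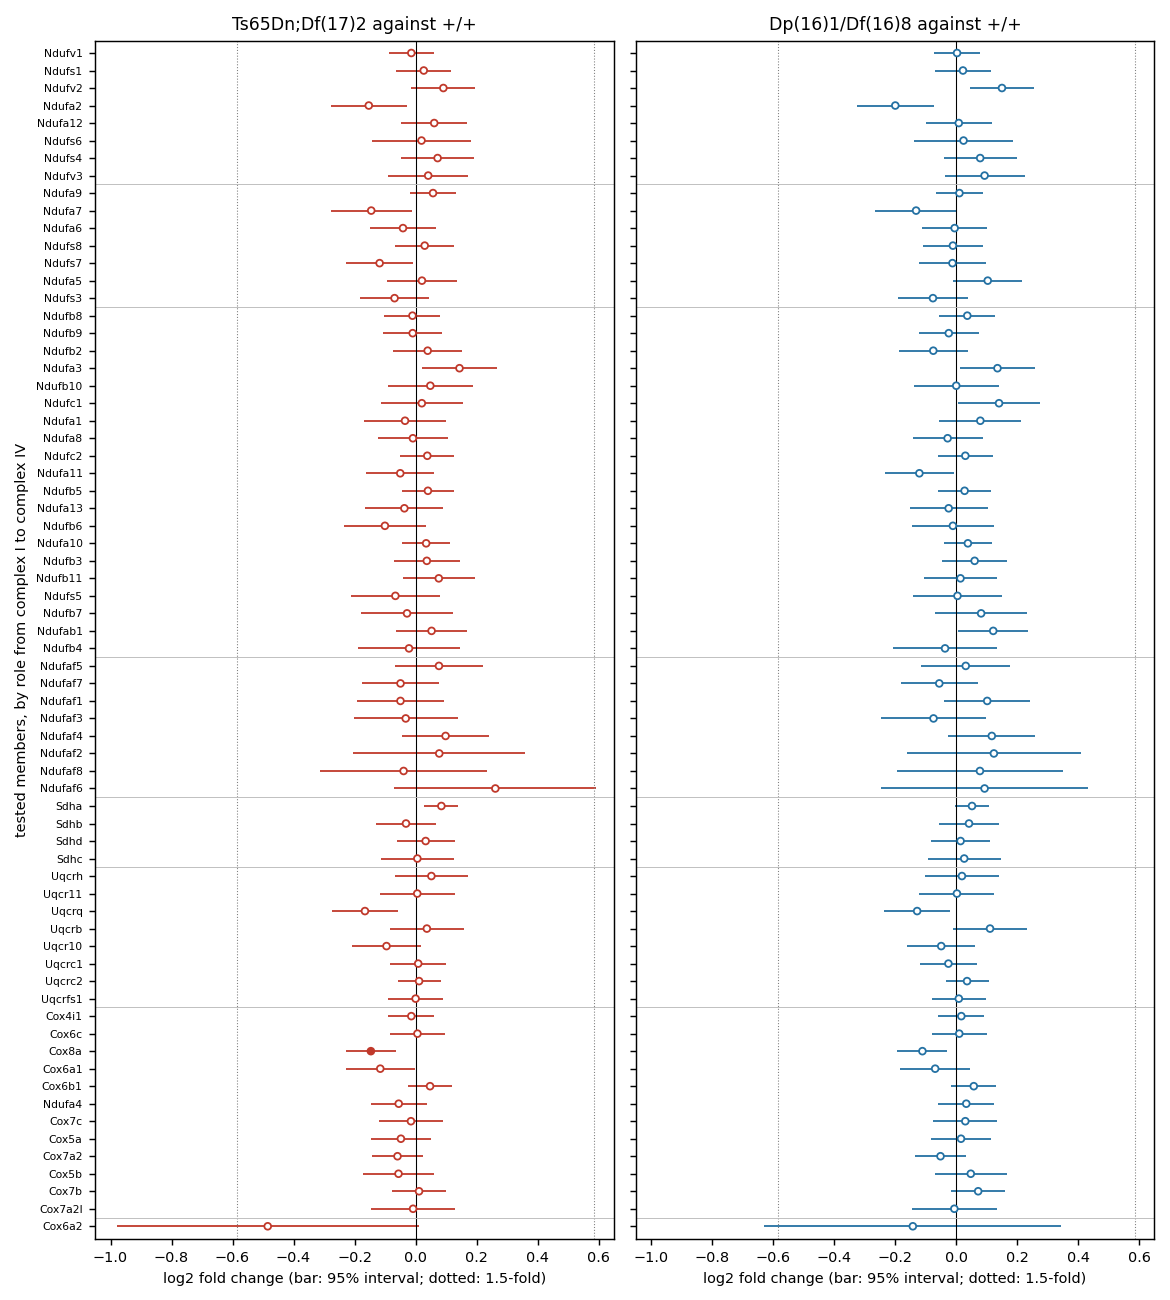
Log2 fold change (point) and 95% interval (bar) of 68 of the 69 tested members, Cox6a2 among them, against +/+, ordered from complex I to complex IV and by level within a role; filled points passed the test and dotted lines mark 1.5-fold. Only Cox8a in Ts65Dn;Df(17)2 is filled, and the widest bars belong to Cox6a2 and Ndufaf6, the members with the fewest counts.

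The module of complex I that oxidises NADH had 0 of 8 members past the threshold in either aneuploid genotype. Ndufa2, a small accessory subunit at the tip of this module, had lowest, median and highest levels of 17.6, 19.7 and 22.7 CPM in +/+. They were 15.9, 17.97 and 21.4 CPM in Ts65Dn;Df(17)2, and 14.5, 17.98 and 20.6 CPM in Dp(16)1/Df(16)8. In each aneuploid genotype 9 of 10 animals were below the +/+ mean, yet the ranges overlapped. Log2 fold changes were -0.15 (SE 0.061, adjusted p = 0.134) and -0.20 (SE 0.062, adjusted p = 0.152) by edgeR. The exons of Ndufa2, whose transcript has 572 bases, overlap 66 bases of Tmco6 on the opposite strand.

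Ndufv2, an iron-sulfur subunit of the same module, lay on the other side. It had 53.2, 59.1 and 65.1 CPM in +/+ (lowest, median, highest), 52.6, 64.1 and 71.9 in Ts65Dn;Df(17)2, and 58.2, 65.6 and 78.5 in Dp(16)1/Df(16)8. The highest animals were aneuploid, with overlap throughout. Its log2 fold change was 0.09 (adjusted p = 0.307) in the first and 0.15 (SE 0.052, adjusted p = 0.226) in the second by edgeR, with 8 of 10 animals above the +/+ mean in each. Ndufv3, a subunit with a human chromosome 21 orthologue, stood at 30.1 ± 3.85 CPM in +/+ (SD, n = 12), 30.97 ± 2.40 in Ts65Dn;Df(17)2 and 32.1 ± 3.01 in Dp(16)1/Df(16)8 (n = 10 each). Folds of 1.03 (interval 0.940 to 1.13) and 1.07 (0.974 to 1.17) have intervals that end below 1.5. Ndufv1, which binds FMN, and Ndufs1, which carries iron-sulfur clusters, had folds of 0.990 and 1.02 in Ts65Dn;Df(17)2. In Dp(16)1/Df(16)8 their folds were 1.002 and 1.02.

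In the quinone module 0 of 8 passed. The accessory subunit Ndufa7 had log2 fold changes of -0.15 and -0.13, with 9 of 10 animals below the +/+ mean in each genotype and adjusted p of 0.186 and 0.401 by edgeR. Ndufs7, which carries the last iron-sulfur cluster before quinone, had -0.12 (adjusted p = 0.188) in Ts65Dn;Df(17)2 and -0.01 in Dp(16)1/Df(16)8. Other values of the module in Ts65Dn;Df(17)2 include -0.07 for Ndufs3 and 0.06 for Ndufa9.

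The membrane arm, the proton-pumping part of complex I to which mitochondrial DNA gives the core subunits, had 0 of 20 past the threshold, with 10 positive values in Ts65Dn;Df(17)2 and 13 in Dp(16)1/Df(16)8. Ndufa3 had the smallest adjusted p of the arm in Ts65Dn;Df(17)2, with a log2 fold change of 0.14 and an adjusted p of 0.152 by edgeR. Its levels were 23.2, 27.8 and 32.8 CPM in +/+ (lowest, median, highest), 26.9, 31.2 and 33.9 CPM in Ts65Dn;Df(17)2, and 24.7, 30.6 and 36.9 CPM in Dp(16)1/Df(16)8. Ndufab1, the mitochondrial acyl carrier protein, had 0.05 and 0.12, and the accessory subunit Ndufa11 had -0.05 and -0.12. Ndufb4, the only subunit gene of the rule on chromosome 16, had folds of 0.985 and 0.975 with intervals of 0.877 to 1.11 and 0.867 to 1.097.

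Of the 8 complex I assembly factors none passed. Leaving aside the restricted isoform Cox6a2, they were the least abundant of the tested groups and had the widest intervals. Ndufaf6, with 2.99 ± 0.883 CPM in +/+ (SD, n = 12), had a log2 fold change of 0.26 (SE 0.162, adjusted p = 0.356 by edgeR) in Ts65Dn;Df(17)2. Ndufaf4 had 0.10 and 0.12, and Ndufaf5 0.08 and 0.03.

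Complex II had 0 of 4 members past the threshold. Sdha, the catalytic flavoprotein shared by the respiratory chain and the citric acid cycle, held the most counts of all members and had the smallest SE. Its lowest, median and highest levels were 253.7, 269.6 and 295.4 CPM in +/+, 277.6, 285.4 and 298.5 CPM in Ts65Dn;Df(17)2, and 257.6, 280 and 297.2 CPM in Dp(16)1/Df(16)8. All 10 Ts65Dn;Df(17)2 animals and 9 of 10 Dp(16)1/Df(16)8 animals were above the +/+ mean, with overlapping ranges. Log2 fold changes were 0.08 (SE 0.027, adjusted p = 0.0662) and 0.05 (SE 0.027, adjusted p = 0.419) by edgeR. In Ts65Dn;Df(17)2 its adjusted p was 0.0248 by DESeq2 and, by edgeR, 0.0193 without +/+ replicate 11. Sdha did not pass without the low-count filter, in either sex alone, with blocks of animal numbers or without animals numbered under 30000. Sdhb, the iron-sulfur subunit (-0.03 and 0.04), and the anchors Sdhc (0.0058 and 0.03) and Sdhd (0.03 and 0.01) stayed nearer to 0.

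In complex III 0 of 8 passed. Uqcrq, a small ubiquinone-binding subunit, came closest. Its lowest, median and highest levels were 32.8, 36.6 and 40.7 CPM in +/+, 28.4, 32.8 and 39.2 CPM in Ts65Dn;Df(17)2, and 28.8, 33.6 and 37.9 CPM in Dp(16)1/Df(16)8. Of the aneuploid animals, 9 of 10 and 8 of 10 were below the +/+ mean. Log2 fold changes were -0.17 (SE 0.052, adjusted p = 0.0622) and -0.13 (SE 0.053, adjusted p = 0.309) by edgeR. In Ts65Dn;Df(17)2 its adjusted p was 0.0326 by DESeq2. By edgeR it was 0.0479 in a fit of this genotype and +/+ alone, 0.0473 with the striatal score as a term and 0.0375 without Ts65Dn;Df(17)2 replicate 8. Uqcrq did not pass without the low-count filter, in either sex alone, with blocks of animal numbers or without animals numbered under 30000. The catalytic Rieske protein gene Uqcrfs1 had folds of 1.000 and 1.01, Uqcrh 1.04 and 1.01, and Uqcr11 1.004 and 1.002.

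The general complex IV subunits had 1 of 12 past the threshold in Ts65Dn;Df(17)2, Cox8a, and 0 of 12 in Dp(16)1/Df(16)8. In Ts65Dn;Df(17)2, 9 of the 12 values were negative, with a median of -0.03; in Dp(16)1/Df(16)8, 4 were negative, with a median of 0.02. Cox6a1, the general isoform of a subunit at the dimer interface, had log2 fold changes of -0.12 (SE 0.056, adjusted p = 0.222) and -0.07 (adjusted p = 0.619) by edgeR, with 9 and 7 of 10 animals below the +/+ mean. Cox4i1 and Cox6c, the most abundant per length, had folds of 0.990 and 1.004 in Ts65Dn;Df(17)2 and 1.01 and 1.01 in Dp(16)1/Df(16)8. Cox7b had 1.01 and 1.05, and Cox7a2l 0.994 and 0.996. Cox6a2, the muscle isoform that is also known from parvalbumin interneurons, had 0.474, 1.52 and 2.21 CPM in +/+ (lowest, median, highest), 0.468, 0.994 and 2.15 in Ts65Dn;Df(17)2, and 0.503, 1.37 and 2.32 in Dp(16)1/Df(16)8. The log2 fold changes, -0.48 (SE 0.243, adjusted p = 0.241) and -0.14 (SE 0.239, adjusted p = 0.840) by edgeR, rest on few counts. Pvalb, picked here from a longer list of interneuron markers, had a log2 fold change of -0.67 in Ts65Dn;Df(17)2 and did not pass (adjusted p = 0.0752 by edgeR). Tac1, a marker on that list and on the striatal list, went the other way. The part of parvalbumin interneurons in the value of Cox6a2 was not tested.

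**Figure D3:**
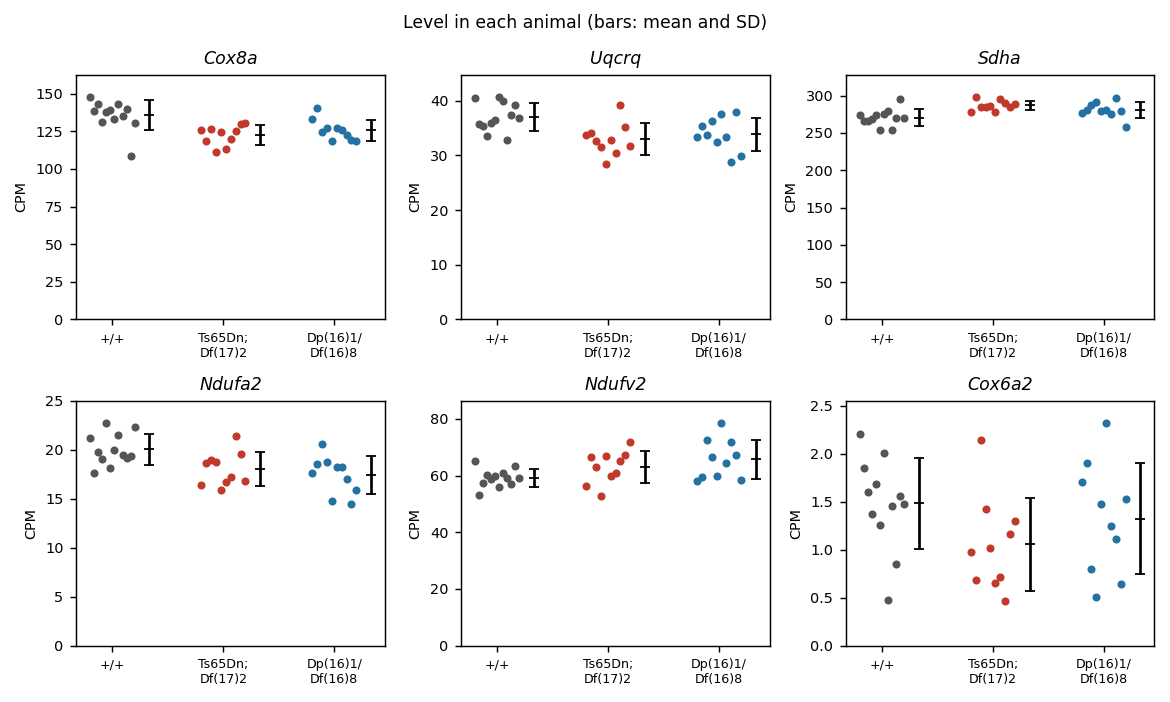
CPM of 6 members in each animal of the 3 genotypes, with mean and SD beside the points; axes start at 0. Cox8a is lower in all 10 Ts65Dn;Df(17)2 animals than the +/+ mean of 135.7 CPM, while the ranges of all 6 genes overlap between genotypes.

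Levels were also summarised per animal by role group. The median fold of the tested members from the +/+ mean of the same sex was 1.001 ± 0.040 in +/+ (SD, n = 12), 1.002 ± 0.032 in Ts65Dn;Df(17)2 (n = 10) and 1.01 ± 0.059 in Dp(16)1/Df(16)8 (n = 10). It ran from 0.939 to 1.06 among +/+ animals and from 0.888 to 1.08 among Dp(16)1/Df(16)8 animals. The lowest animal, Dp(16)1/Df(16)8 replicate 10, was also the lowest of its genotype in 5 of the 7 role groups shown in the plot by role group. General complex IV subunits had group means of 1.004 ± 0.043, 0.975 ± 0.038 and 1.002 ± 0.065, and the quinone module 1.004 ± 0.054, 0.979 ± 0.034 and 0.993 ± 0.061, in the order +/+, Ts65Dn;Df(17)2 and Dp(16)1/Df(16)8. Complex I assembly factors had means of 1.001 ± 0.081, 1.048 ± 0.077 and 1.05 ± 0.054 in the same order. For these 3 groups the distance of either genotype's mean from that of +/+ was smaller than the SD within each genotype, and it was not tested.

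**Figure D4:**
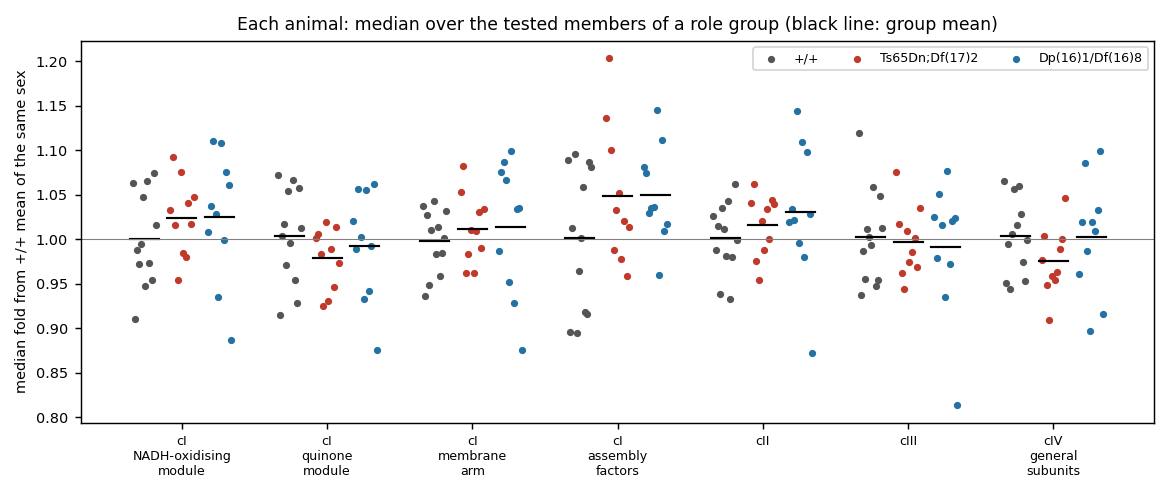
Each point is 1 animal, placed by the median fold of the tested members of a role group from the +/+ mean of the same sex; black lines are genotype means. The genotypes overlap in all 7 groups, and the lowest point of complex III (0.813) is Dp(16)1/Df(16)8 replicate 10.

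Between males and females 0 of 69 members passed by edgeR, where 0.0748% of all genes did, and only Ndufaf6 had an unadjusted p under 0.05, as 9.94% of all genes did (log2 0.42 higher in males, adjusted p = 0.426). In tests of whether the genotype effect differs by sex, 0 members and 0 of all 16042 genes passed by edgeR. With unadjusted p under 0.05 there were 3 members for Ts65Dn;Df(17)2 and 4 for Dp(16)1/Df(16)8, against 4.91% and 5.01% of all genes.

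Some members were higher in libraries with more striatal RNA. With the striatal score as a further term in the model, a test chosen after the data were seen, 21 of 69 members rose with the score and 0 fell, by edgeR. Of all 16042 genes, 2241 rose and 2149 fell, together 27.4%. Signs were positive for 64 of the 69; Ndufaf7, Ndufb6, Cox6a2, Ndufb4 and Ndufaf2 were negative. The largest rise was that of Ndufa1, a membrane-arm subunit, at 0.09 in log2 per unit of score (adjusted p = 5.1e-05), followed by the complex III subunit Uqcr11 at 0.08 (adjusted p = 0.00082). The others with small adjusted p were Cox4i1 (0.04), Ndufv3 (0.07), Sdhc (0.06) and Uqcrh (0.06).

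In the NADH-oxidising module 4 of 8 members rose with the score, and in the quinone module 3 of 8 did. The membrane arm had 6 of 20, complex II 2 of 4, complex III 2 of 8 and general complex IV subunits 4 of 12. None of the 8 assembly factors rose, where 2241 of all 16042 genes did. The count of rising members was 15 with terms for blocks of animal numbers, where 1826 of 16042 genes rose and 1719 fell. It was 20 in the aneuploid libraries alone, where 1412 of 15629 genes rose and 1337 fell. In the +/+ libraries alone it was 0, with 49 of 68 values positive, where 769 of 13773 genes rose and 661 fell. Leaving out 1 library gave 10 to 24 rising members, with 1891 to 2257 rising over all genes. The count of 10, where 2025 of 16129 genes rose and 1916 fell, came without Dp(16)1/Df(16)8 replicate 10. That animal had a score of 2.65 and the lowest respiratory level. The score is a mean of marker genes of the same libraries, so depth and composition are shared by both sides of the relation.

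The mean score was highest in Ts65Dn;Df(17)2 and next in Dp(16)1/Df(16)8. All 18 markers had positive log2 fold changes in both aneuploid genotypes (medians 0.78 and 0.54 in the order just used), while 0 passed in either by edgeR (2 and 0 with unadjusted p under 0.05). Of 12 excitatory neuron markers 5 fell in Ts65Dn;Df(17)2, among them Cux2, Rorb, Lamp5 and Fezf2, and 0 passed in Dp(16)1/Df(16)8. With the score as a term, 52 of 69 members had a negative log2 fold change in Ts65Dn;Df(17)2, with a median of -0.04, against 34 and a median of 9.6e-05 without it. Uqcrq (-0.21) was then the 1 member past the threshold. The same fit gave 37 negative values and 0 calls in Dp(16)1/Df(16)8. The part of tissue composition in the genotype values was tested only by this term.

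**Figure D5:**
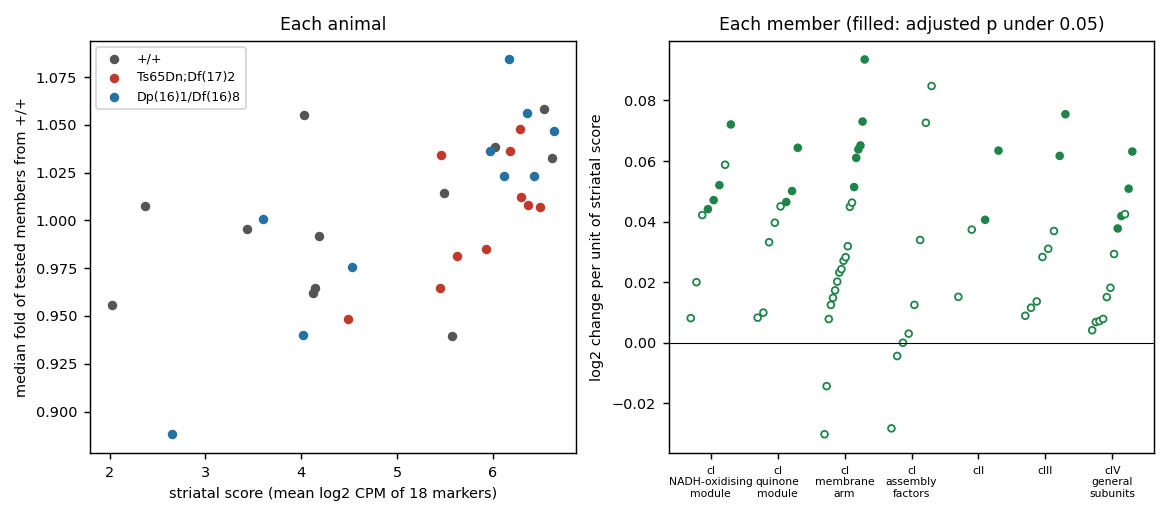
Left, each animal by its striatal score (mean log2 CPM of 18 markers) and the median fold of the tested members from +/+; right, the log2 change of each member per unit of score, by role group, filled where the adjusted p is under 0.05. The animal at the lower left is Dp(16)1/Df(16)8 replicate 10 (score 2.65, fold 0.888), and 21 points are filled, all above 0; the restricted isoform Cox6a2 is not drawn.

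Outside the members, the genes of the pathway that changed in both genotypes were those of the additional segment. Gabpa (chromosome 16, 84834925-84863779) had 26.1, 32.5 and 37.9 CPM in +/+ (lowest, median, highest), 43.7, 46.2 and 51.1 CPM in Ts65Dn;Df(17)2, and 42.2, 47.3 and 56.0 CPM in Dp(16)1/Df(16)8. No aneuploid animal overlapped with +/+. It rose 1.47-fold (interval 1.36 to 1.602) and 1.52-fold (1.39 to 1.65), with adjusted p of 3.8e-08 and 9.4e-09 by edgeR. The ATP synthase subunits Atp5o and Atp5j of the same segment rose 1.596-fold and 1.57-fold in Ts65Dn;Df(17)2 and 1.57-fold and 1.575-fold in Dp(16)1/Df(16)8, while 15 of the 17 ATP synthase genes did not pass in either. The annotated spans of Gabpa and Atp5j overlap, so part of their reads cannot be told apart.

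The 13 members with CCGGAAG had a median log2 fold change of -0.03 in Ts65Dn;Df(17)2, from -0.15 for Cox8a to 0.05 for Uqcrh, and 5 were positive. The 44 tested members without it had a median of 0.01, with 24 positive. In Dp(16)1/Df(16)8 the medians were 0.01 with the letters (8 of 13 positive) and 0.02 without (30 of 44 positive). Cox8a, the only member past the threshold in Ts65Dn;Df(17)2, carries the letters next to its start. So does Uqcrh, which had the highest value of the 13 and did not pass. Most of the 13 have the letters near the start, among them Ndufaf8 (-8), Cox6a1 (-16), Ndufaf1 (-18), Ndufb7 (-20) and Sdhb (7). The place of the letters therefore does not set Cox8a apart. A link between the letters and the RNA level was not tested. These are RNA levels, and binding of GABP was not measured.

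Of the other regulators, none of 16 passed in either genotype. Ppargc1a, the coactivator PGC-1alpha, had folds of 1.02 and 1.004, Nrf1, which encodes NRF-1, 0.999 and 0.992, and Nrip1, a corepressor gene of chromosome 16 outside the shared segment, 0.963 and 0.965. The mobile carrier cytochrome c (Cycs) had 0.996 and 1.03, and the complex III haem subunit Cyc1, outside the symbol rule, 0.975 and 0.945. Of 6 complex III assembly genes Uqcc2 fell in Ts65Dn;Df(17)2 by 0.29 on the log2 scale (SE 0.067, adjusted p = 0.0163 by edgeR), with all 10 animals below the +/+ mean. Its value in Dp(16)1/Df(16)8 was -0.13 (adjusted p = 0.433), and the difference between the aneuploid genotypes did not pass (-0.16, adjusted p = 0.9998). Of 25 tested complex IV assembly genes Cmc1 rose in Ts65Dn;Df(17)2 by 0.34 (SE 0.099, adjusted p = 0.0473 by edgeR), a call that ended in 21 of the 32 fits without 1 library. Its value in Dp(16)1/Df(16)8 was 0.30 (adjusted p = 0.213). Of 11 further complex I assembly genes and 4 of complex II none passed, nor did any of the 10 tested genes of mitochondrial DNA, whose median log2 fold changes were 0.16 and 0.12.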

How the data were processed

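The authors deposited 1 table of raw counts per gene for 32 libraries of ribosome-depleted total RNA. Builds named in the submitters' processing notes are GRCm38.p6 and GRCh38, and tools are featureCounts (Subread 1.6.4), STAR 2.7.9a and bcl2fastq 2.20; the strand setting is not given in the sources used here, so reads of genes that overlap on opposite strands cannot be told apart (23 members). Counts of members with near-identical pseudogenes are uncertain. Coordinates and transcript lengths (shortest principal transcript) came from GENCODE M21 (GRCm38), which held 55141 of 55401 identifiers.

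Analysis used edgeR 4.0.16 (R 4.3.3): filterByExpr by genotype (16042 genes), TMM factors, and a quasi-likelihood model with genotype and sex on all 32 libraries. The F test was adjusted by Benjamini-Hochberg over all tested genes at 0.05. SE is the log2 fold change divided by the square root of F. CPM is TMM-normalised, with a prior count of 2 on the log2 scale. Library depth was 5795479 to 11189548 counts.

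Members, role lists, pathway lists and markers were chosen with earlier results of these data known. Members named are those past the threshold, per role group the 3 with the smallest p, the 2 highest and the lowest per length, all restricted isoforms and all untested members, and Ndufv3; 8 regulators, carriers and ATP synthase genes and every pathway gene past the threshold were added. Some listed genes are counted but not reported by name here. Other members and markers were named after their values were seen. Alternatives were DESeq2 1.42.0, RLE factors, limma voom (3.58.1), no filter, no sex term, fits of fewer libraries, and terms for the striatal score or for blocks of animal numbers (a new block at a gap over 10).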

Additional observations from a re-analysis of the deposited data

Results flagged for a closer look

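Among 118 groups of values of tested and named genes, 3 held an animal far from the others of its genotype by Dixon's test. Chance marks about 1 group in 20. The critical value used was that for 10 animals, so the groups are those of the aneuploid genotypes. The +/+ animals were not checked in this way. In Ts65Dn;Df(17)2, replicate 4 had 23.99 CPM of Ndufa5, a quinone-module subunit, and the next lowest animal had 28.8. In Dp(16)1/Df(16)8, replicate 3 had 26.9 CPM of Ndufa7, next to 23.6, and replicate 9 had 42.9 CPM of Ndufs3, a core subunit of the quinone module, next to 36.4.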

How the results depend on the processing

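The number of members past the threshold in Ts65Dn;Df(17)2 against +/+, 1 in the reported fit, was 2 in a fit of these genotypes alone and 3 by DESeq2. It was 0 without the low-count filter, in either sex alone, with blocks of animal numbers and without animals numbered under 30000. Without 1 library it ran from 0 to 2 (2 without +/+ replicate 11 or Ts65Dn;Df(17)2 replicate 8). In Dp(16)1/Df(16)8 it ran from 0 to 1. Pathway genes past the threshold in Ts65Dn;Df(17)2, 5 in the reported fit, came to 3 in each sex alone, with blocks and without low animal numbers, and without 1 library from 4 (+/+ replicate 10 among others) to 9 (without +/+ replicate 6). Members rising with the striatal score came to 0 in +/+ alone, where 769 of 13773 genes rose. Without Dp(16)1/Df(16)8 replicate 10 they came to 10, where 2025 of 16129 genes rose. With nuclear genes as the denominator, members held 0.366% and complex I subunits 0.148% of the counts in Ts65Dn;Df(17)2. Fits on fewer animals have fewer samples; the cause of the other changes was not tested. No reported call changed direction. With blocks of animal numbers, genes called over the whole table went from 637 to 81 in Ts65Dn;Df(17)2 and from 92 to 246 in Dp(16)1/Df(16)8. Blocks and genotype are partly confounded. Ts65Dn;Df(17)2 replicates 4 and 5, both female and the only animals numbered under 30000, share their block with no other genotype. The other Ts65Dn;Df(17)2 animals are all in the same block, which holds only part of the other genotypes. No paired analysis was possible because no number is shared between genotypes; the blocks group neighbouring numbers and pair no animals. Depth limits Cox6a2, Ndufaf6 and the untested isoforms.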
